A study of Homo sapiens with 9 samples.

Results

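The transcriptome of HepG2 cells carrying the exon 2 guide RNA against KEAP1 (sgKeap1-2) was compared with that of HepG2 cells carrying a guide RNA against the AAVS1 safe-harbour locus (sgCtrl). HepG2 is a human liver cancer line that is used as a model of hepatocytes. The 6 libraries were taken by their titles from the 9 of the series, 3 for each group, and the other 3 libraries carry another KEAP1 guide (sgKeap1-1). All cells had been transduced with the lentiCRISPRv2 vector, which delivers Cas9 together with the guide, and were selected with puromycin. The control cells thus received Cas9 as well, with the guide against AAVS1. The sources used here do not describe the populations as single clones and do not give the share of edited alleles. Cells received no siRNA and were lysed for RNA at 48 h after seeding. QuantSeq libraries were sequenced, which read the 3′ end of polyadenylated transcripts.

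KEAP1 is the substrate adaptor of a CUL3 ubiquitin ligase. Under resting conditions it holds the transcription factor NRF2 (encoded by NFE2L2) for degradation by the proteasome. When KEAP1 is lost or its reactive cysteines are modified, NRF2 accumulates, pairs with small MAF proteins and binds antioxidant response elements near genes for glutathione synthesis, quinone and carbonyl reduction, NADPH supply and iron storage. The factors TFEB and TFE3 bind CLEAR elements at lysosomal genes, and the study asked whether lysosomal genes respond to loss of KEAP1.

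The target sites of both guides are shown with the surrounding genomic sequence because they define what was targeted. The target is in capitals (GRCh37, 5′ to 3′ on the strand that carries the target). The sgKeap1-2 target lies at chr19:10610500-10610519 on the minus strand, which is the coding strand of KEAP1, and is followed by a CGG PAM.
sgKeap1-2: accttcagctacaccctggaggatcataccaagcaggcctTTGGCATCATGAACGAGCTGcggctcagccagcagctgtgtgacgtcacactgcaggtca
sgCtrl: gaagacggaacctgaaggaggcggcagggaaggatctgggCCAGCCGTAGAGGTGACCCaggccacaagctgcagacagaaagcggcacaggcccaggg
The KEAP1 site is in exon 2 of 6 (chr19:10610071-10610756), and the predicted cut falls after coding base 207 of 1872, at codon 69 of 624, with 11.1% of the coding sequence before it. A search of GRCh37 found 1 exact match of this target before an NGG PAM, 0 matches with 1 or 2 mismatches and 5 with 3 mismatches. The sgCtrl target lies at chr19:55627855-55627873 on the plus strand, in an intron of PPP1R12C and an exon of the gene ENSG00000287170. It had 1 exact match and 20 matches with 3 mismatches.

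Sequencing depth was similar in the groups, with 3051755 to 3809616 counted reads in the sgCtrl libraries and 3201097 to 4266750 in the sgKeap1-2 libraries. Values are given as CPM (read counts scaled to a common library total after TMM normalization), and a gene was called when its edgeR adjusted p-value was under 0.05. The first principal component (53.2% of the variance) separated the groups, and on the second (21.6%) sgKeap1-2 replicate 3 (34.7) lay farthest from 0, with replicate 2 of both groups at the other end (-19.4 in sgCtrl and -24.4 in sgKeap1-2). All 13 hepatocyte markers, among them ALB, APOB and HNF4A, had counts in every library. Of 19 markers of immune, endothelial, stromal and red blood cells, 5 passed the filter on low counts and 0 were called; PTPRC, CD3E, PECAM1, CDH5 and HBB had no row in the count table, whereas LYZ, a lysozyme gene also made by macrophages, was at 676 to 1796 CPM. The labels do not say that the libraries of a group came from separate cultures, so p-values measure the spread between these libraries, which may be technical.

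KEAP1 mRNA (Entrez gene 9817) did not differ between the groups beyond their spread. Its level was 63.3, 89.2 and 85.3 CPM in sgCtrl and 81.9, 85.6 and 73.9 CPM in sgKeap1-2, and the groups overlapped. The log2 fold change was 0.02 (SE 0.15, adjusted p = 0.952). This does not check the edit, because the reads fall at the transcript's end, in the last exon (chr19:10596801-10597494), and not at the cut.

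Of 11064 genes tested, 1196 (10.8%) were called between sgKeap1-2 and sgCtrl. Of these, 659 (5.96% of the genes tested) were up-regulated and 537 (4.85%) were down-regulated. Log2 fold changes reached 1 or more in size for 366 of the up-regulated and 229 of the down-regulated genes. The 3 libraries of one group did not overlap the 3 of the other for 1186 of the 1196 called genes and for 28% of all genes tested. The median log2 fold change over all genes was -0.01. The up-regulated genes together held 5.48% of the normalized counts in sgCtrl and 11.2% in sgKeap1-2, whereas the share of the down-regulated genes went from 10.9% to 5.51%. Without sgKeap1-2 replicate 3 the number of called genes was 1255, of which 992 were also called, with the same sign, with all libraries in the fit; without sgCtrl replicate 1 it was 764, and without sgCtrl replicate 3 it was 778.

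**Figure D1:**
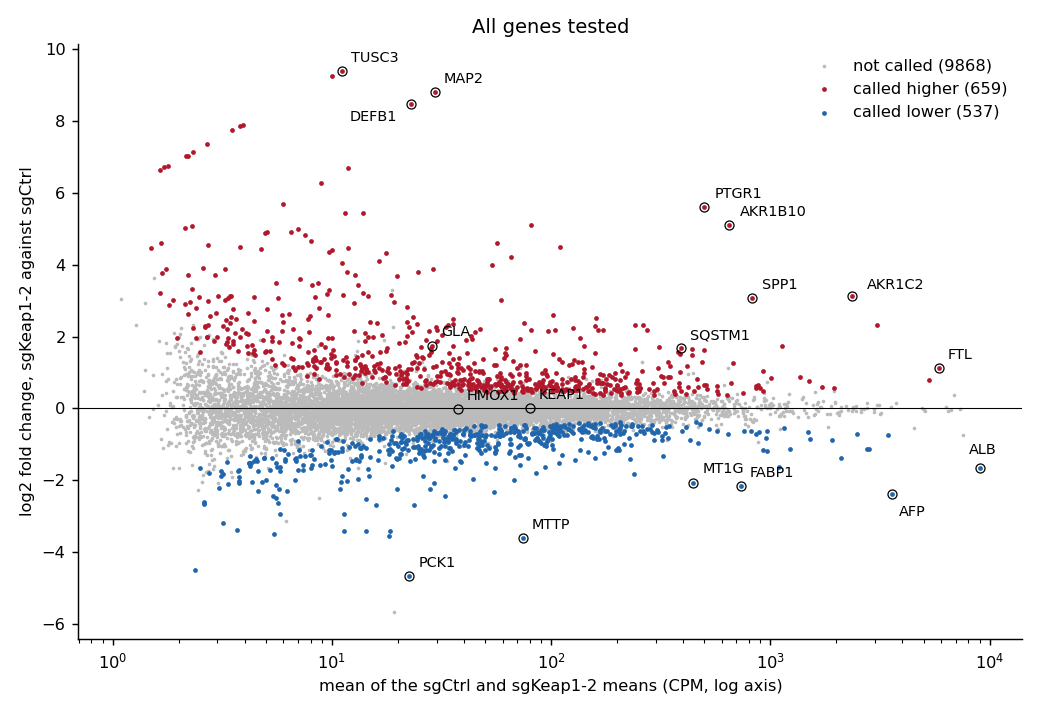
Each point is 1 of the 11064 genes tested, with the mean of the group means in CPM on a log axis and the log2 fold change of sgKeap1-2 against sgCtrl (3 libraries each). Red and blue points are genes called higher and lower; PTGR1 and AKR1B10 stand far above the cloud at high expression, AFP and ALB below it, KEAP1 and HMOX1 lie near 0, and the values of genes near 0 counts in sgCtrl, such as TUSC3, depend on the fit's prior count.

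Genes were then grouped into 34 lists by role and a list of markers of other cell types. Each list by role that is reported here is described by its counts and its median, beside -0.01 for all genes. Shares of members called have to be read against the 5.96% and 4.85% of all genes called higher and lower.

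Detoxification enzymes were the list with the largest share of up-regulated members. Of 20 tested genes for the reduction or hydrolysis of carbonyls, quinones and epoxides, 11 rose and 0 fell (median log2 fold change 0.80). PTGR1, which reduces reactive alkenals and prostaglandins, was at 17.8, 19.7 and 21.8 CPM in sgCtrl and at 1038, 1102 and 777 CPM in sgKeap1-2, a log2 fold change of 5.62 (SE 0.20, adjusted p = 7.61e-10). AKR1B10, an aldo-keto reductase of retinals and lipid aldehydes, went from 27.3, 51 and 32.3 CPM to 1483, 1592 and 716 CPM (log2 fold change 5.11, SE 0.38, adjusted p = 3.05e-05). The lowest sgKeap1-2 library of each gene was far above the highest sgCtrl library, and for both it was replicate 3 that was lowest.

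The hydroxysteroid-reducing aldo-keto reductases rose together, with log2 fold changes of 3.12 for AKR1C2, 2.33 for AKR1C1 and 1.64 for AKR1C3 (SE 0.16 to 0.20). Their transcripts are near-identical, so the division of reads between them is uncertain. NQO1, which reduces quinones with NADPH, was at 536, 521 and 505 CPM in sgCtrl and at 1900, 1769 and 1545 CPM in sgKeap1-2 (log2 fold change 1.74, SE 0.12, adjusted p = 8.47e-07). EPHX1, the microsomal epoxide hydrolase, rose by 2.19 (SE 0.15) and the aldehyde dehydrogenase ALDH1A1 by 1.71 (SE 0.15). ALDH3A1, another aldehyde dehydrogenase, was near the floor in sgCtrl (0.681 to 2.23 CPM) and at 11.9 to 33.2 CPM in sgKeap1-2. The carbonyl reductase CBR1 rose by 1.04 (SE 0.16).

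**Figure D2:**
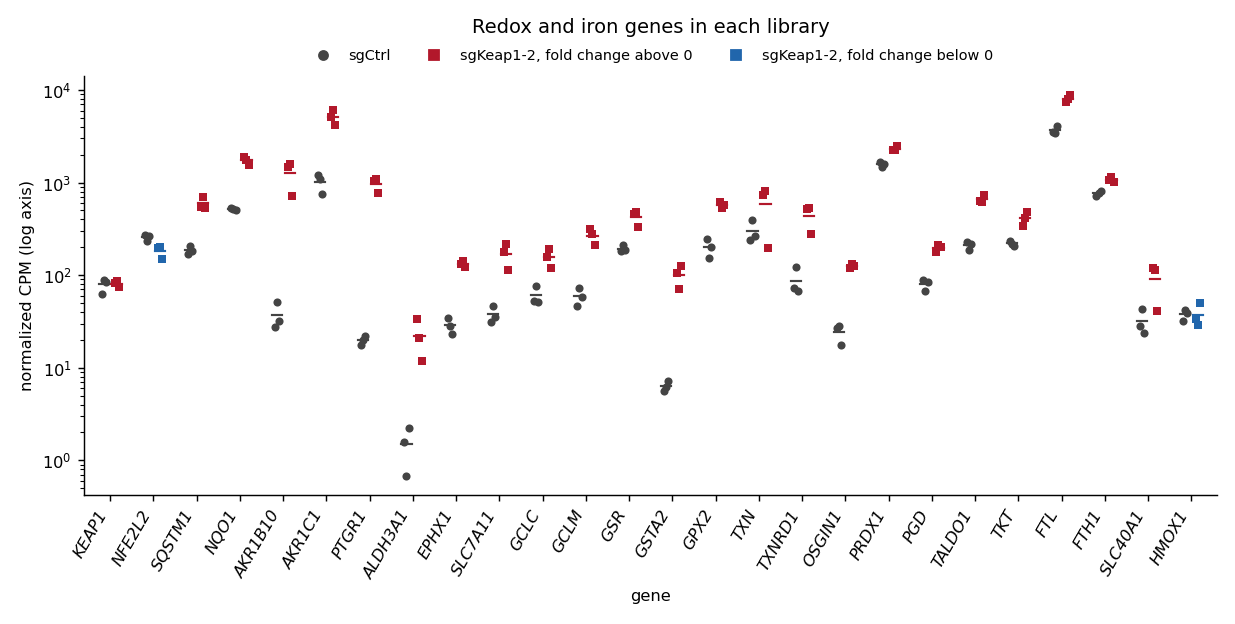
Normalized CPM on a log axis of redox and iron genes in each of the 3 sgCtrl libraries (grey circles) and the 3 sgKeap1-2 libraries (squares, red above and blue below sgCtrl), with group means as short lines. PTGR1 rises from 17.8–21.8 to 777–1102 CPM, whereas the groups of KEAP1, TXN and HMOX1 overlap.

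In the glutathione list, 10 of 33 tested members were up-regulated and 2 down-regulated (median 0.24), with 1 down-regulated without sgCtrl replicate 1 or 2 or sgKeap1-2 replicate 1 or 3, with limma-voom or with only the groups compared. Both subunits of glutamate-cysteine ligase, the rate-limiting enzyme of glutathione synthesis, rose. The modifier subunit GCLM went from 46.4, 72.8 and 58.6 CPM to 313, 277 and 213 CPM (log2 fold change 2.18, SE 0.19, adjusted p = 3.44e-06). The catalytic subunit GCLC went from 53, 76.9 and 51.9 CPM to 159, 192 and 120 CPM (1.38, SE 0.20, adjusted p = 0.000472), and neither gene overlapped between the groups. SLC7A11, the cystine importer that supplies cysteine, was at 31.5 to 46.3 CPM in sgCtrl and at 114 to 219 CPM in sgKeap1-2 (2.18, SE 0.33). GSS, the next enzyme of the pathway, had a log2 fold change of 0.22 (SE 0.17, adjusted p = 0.485) with overlapping libraries.

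Among the enzymes that use or regenerate glutathione, GSR, the glutathione reductase, rose by 1.13 (SE 0.15), the peroxidase GPX2 by 1.52 (SE 0.16) and the microsomal transferase MGST1 by 1.18 (SE 0.23). GPX4, the peroxidase of membrane lipid peroxides, was not called (-0.25, SE 0.18, adjusted p = 0.434). The alpha-class transferases GSTA2 and GSTA1 rose by 3.99 (SE 0.29) and 2.23 (SE 0.18), with reads shared between similar copies. GSTA2 was at 5.56, 6.12 and 7.25 CPM in sgCtrl and at 105, 71.7 and 126 CPM in sgKeap1-2. Of the 5 genomic sites with 3 mismatches to the sgKeap1-2 target, 2 lie in this gene cluster, 10.5 and 9.3 kb from GSTA1 (chr6:52656169-52668658), and their part in these values was not tested. With sgKeap1-1 the log2 fold changes against the same sgCtrl libraries were 3.73 for GSTA2 and 1.94 for GSTA1. GLRX5, a mitochondrial glutaredoxin of iron-sulfur cluster assembly, fell from 348–398 CPM to 233–241 CPM (-0.67, SE 0.11).

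In the thioredoxin list, 3 of 25 tested members rose (5 without sgKeap1-2 replicate 3) and 0 fell (median 0.18). TXNRD1, the cytosolic thioredoxin reductase, went from 73.4, 121 and 67.5 CPM to 513, 528 and 277 CPM (2.34, SE 0.29, adjusted p = 0.000577). OSGIN1, an oxidative stress-induced growth inhibitor, rose by 2.38 (SE 0.18) and PRDX1, an abundant peroxiredoxin, by 0.56 (SE 0.11). TXN itself was at 743 and 820 CPM in sgKeap1-2 replicates 1 and 2 but at 198 CPM in replicate 3, below all 3 sgCtrl libraries (238 to 393 CPM), and was not called (0.98, SE 0.49, adjusted p = 0.294).

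NADPH-supplying genes were up-regulated in 6 of 22 tested cases, with 1 gene down-regulated (median 0.19). Of the pentose phosphate pathway, the oxidative enzyme PGD went from 89.3, 67.7 and 84.5 CPM to 176, 212 and 203 CPM (1.29, SE 0.15, adjusted p = 4.83e-05). TALDO1, the transaldolase, went from 231, 186 and 215 CPM to 634, 618 and 735 CPM (1.65, SE 0.13, adjusted p = 1.52e-06). TKT, the transketolase, rose by 0.90 (SE 0.13). ALDH1L1, the cytosolic 10-formyltetrahydrofolate dehydrogenase that yields NADPH, rose by 1.92 (SE 0.22). NADK2, the mitochondrial NAD kinase, fell by 0.96 on the log2 scale (SE 0.19).

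Iron genes moved in both directions, with 6 of 31 tested members up and 3 down (median 0.02), and 3 up without sgCtrl replicate 1 or sgKeap1-2 replicate 1. FTL, the ferritin light chain, was at 3494, 3440 and 4085 CPM in sgCtrl and at 7407, 7977 and 8716 CPM in sgKeap1-2 (1.13, SE 0.12, adjusted p = 2.48e-05). The heavy chain FTH1 rose by 0.48 (SE 0.12), a call that was lost without sgCtrl replicate 1 (adjusted p = 0.089) or sgKeap1-2 replicate 2. Ferritin genes have many processed copies that could share their reads. BLVRB, a biliverdin reductase, rose by 1.07 (SE 0.19). HMOX1, the inducible heme oxygenase, was at 32.1, 42.2 and 39 CPM in sgCtrl and at 33.2, 29 and 49.7 CPM in sgKeap1-2, with overlapping groups (-0.01, SE 0.22, adjusted p = 0.985). The transferrin gene TF fell from 3217–4123 CPM to 1602–1817 CPM (-1.13, SE 0.14) and TFR2, the hepatic transferrin receptor, from 41.6–44.2 CPM to 11.7–19.9 CPM (-1.47, SE 0.22). The general transferrin receptor TFRC was not called (0.12, SE 0.13, adjusted p = 0.632).

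Of 12 tested efflux transporters, 5 rose (3 without sgCtrl replicate 1) and 2 fell (median 0.23). The canalicular and basolateral conjugate exporters ABCC2 and ABCC3 went from 45.6–63.6 to 124–185 CPM and from 36–40.2 to 93–97.3 CPM (1.51, SE 0.20, and 1.33, SE 0.13). ABCC5 rose by 1.24 (SE 0.19), and the phosphatidylcholine floppase ABCB4 fell by 1.11 on the log2 scale (SE 0.20). In the list of phase I and II enzymes, 7 of 26 tested members rose and 3 fell (median -0.17), with 1 lower without sgCtrl replicate 3 or sgKeap1-2 replicate 2, 5 lower with the DESeq2 Wald test and 4 higher with at least 10 counts in every library. UGT1A1, the bilirubin glucuronosyltransferase, whose last exons are shared with other UGT1A genes, had 0, 1 and 2 counts in sgCtrl and 29, 37 and 45 in sgKeap1-2. The ratio was 33.2 (95% exact counting interval 11.1 to 163, which covers counting error only). The cytochromes CYP2S1 and CYP4F11 rose by 3.43 (SE 0.35) and 2.09 (SE 0.27), and POR, which passes electrons to microsomal cytochromes, fell by 0.56 on the log2 scale (SE 0.12).

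Among NRF2's regulators and partners, 1 of 17 tested genes rose and 1 fell (median 0.08). Each is a share of 5.88%, near the 5.96% and 4.85% of all genes called higher and lower. SQSTM1, the autophagy receptor p62 that binds KEAP1, was at 169, 208 and 182 CPM in sgCtrl and at 550, 699 and 534 CPM in sgKeap1-2 (1.67, SE 0.17, adjusted p = 1.9e-05). NFE2L2 mRNA was at 271, 234 and 264 CPM and at 197, 201 and 149 CPM (-0.49, SE 0.14, adjusted p = 0.0347), without overlap. This NFE2L2 call was lost when any 1 of 4 libraries was left out: sgCtrl replicate 1 (adjusted p = 0.134) or 3, or sgKeap1-2 replicate 1 or 3. It was also lost with only the groups compared in the fit (adjusted p = 0.0549). The repressor BACH1 and the partner MAFG were not called (0.63, SE 0.27, adjusted p = 0.169, and 0.47, SE 0.33, adjusted p = 0.453).

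Lysosomal genes were higher in more cases than lower. Of 45 tested hydrolases and activators, 8 rose and 1 fell (median 0.23), and of 52 tested genes for the lysosomal membrane, acidification and sorting, 5 rose and 0 fell (median 0.22). Over both lists, 72 of 97 genes had a log2 fold change above 0, against 5348 of all 11064 genes tested, and 3 of the 13 called higher reached 1. GLA, the alpha-galactosidase of globotriaosylceramide breakdown, was at 13.5, 15 and 10.9 CPM in sgCtrl and at 46.2, 46.1 and 40.2 CPM in sgKeap1-2 (1.75, SE 0.18, adjusted p = 1.54e-05). AGA, which cleaves the bond between asparagine and its sugar in glycoprotein breakdown, rose by 1.23 (SE 0.17). GALNS, a keratan sulfate sulfatase, rose by 1.11 (SE 0.22). The acid alpha-glucosidase GAA, the hexosaminidase subunit HEXA, the peptidase TPP1 and the protective protein CTSA rose by 0.65 to 0.74 (SE 0.12 to 0.14), and the saposin precursor PSAP went from 633–735 to 949–1163 CPM (0.56, SE 0.12). The groups did not overlap for any of these 8 genes.

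The cathepsins CTSB (0.64, SE 0.23, adjusted p = 0.112) and CTSD (0.19, SE 0.13, adjusted p = 0.39) were not called. At the membrane, CD63 went from 671, 598 and 741 CPM to 1080, 1017 and 1027 CPM (0.64, SE 0.12, adjusted p = 0.0036). LAMP1 rose by 0.42 (SE 0.12), a call lost without any 1 of 5 libraries (highest adjusted p = 0.15, without sgCtrl replicate 2) and with only the groups compared (adjusted p = 0.0642), and LAMP2 was not called (-0.22, SE 0.17, adjusted p = 0.498). Of the proton pump, ATP6V1E1 rose by 0.68 (SE 0.13), ATP6V0A1 by 0.69 (SE 0.18) and ATP6V0E1 by 0.54 (SE 0.12). ATP6V0A1 was not called without sgCtrl replicate 1 or 2 or sgKeap1-2 replicate 2 (highest adjusted p = 0.0835), and ATP6V0E1 without sgCtrl replicate 3 (adjusted p = 0.0738). Without sgKeap1-2 replicate 3, 12 hydrolases and activators and 7 membrane genes were called higher, and without any 1 of the sgCtrl libraries 3 membrane genes were. The 1 lower hydrolase list member was not called without sgCtrl replicate 1 or 3 or sgKeap1-2 replicate 2, with library size alone or with only the groups compared in the fit, and 2 were lower without sgKeap1-2 replicate 3. With a block for the replicate number 15 hydrolases and activators and 10 membrane genes were called higher.

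**Figure D3:**
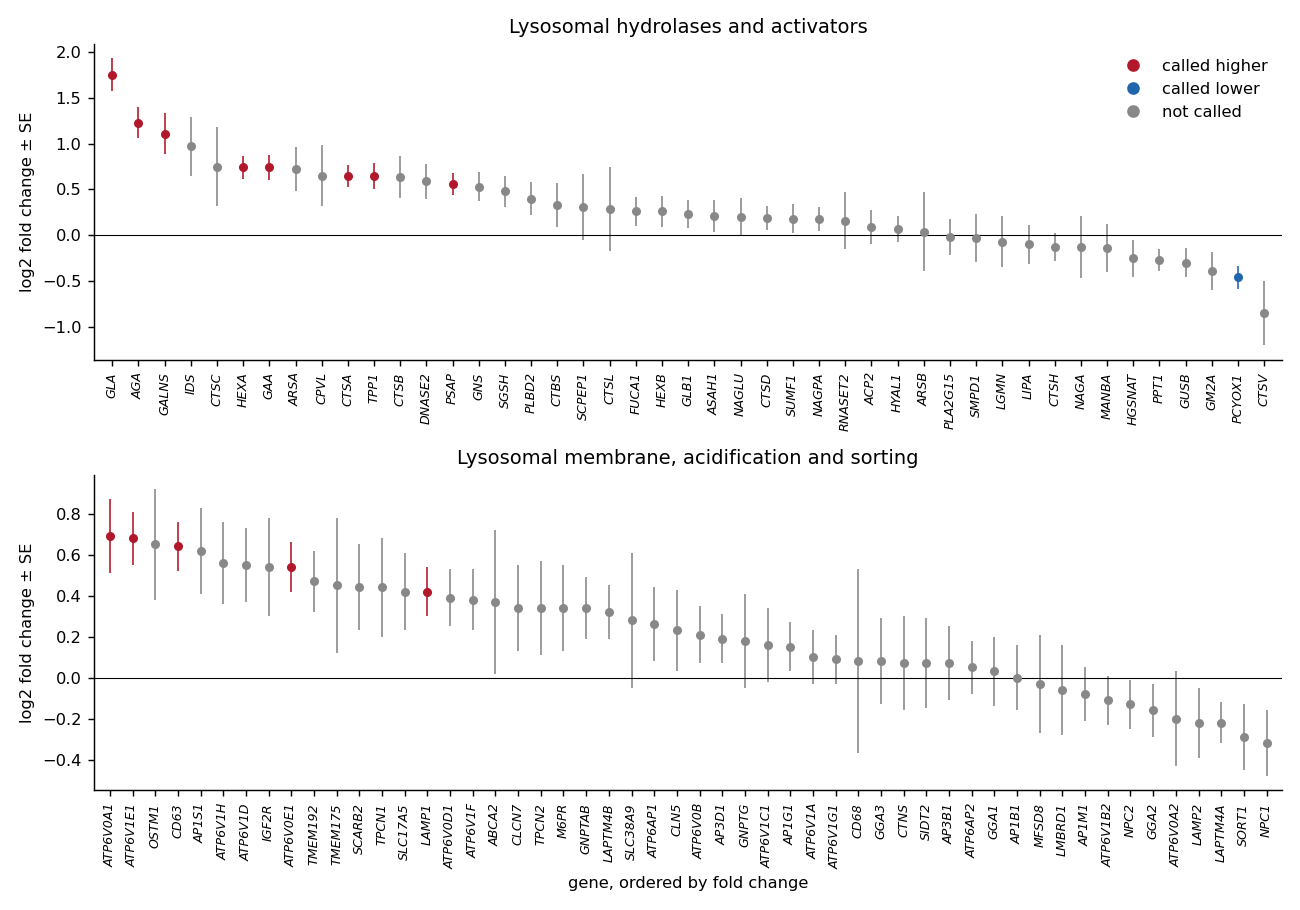
Log2 fold change ± SE of sgKeap1-2 against sgCtrl (3 libraries each) for the 45 tested hydrolases and activators (top) and the 52 tested membrane, acidification and sorting genes (bottom), ordered by fold change. Red and blue points were called; most grey points lie above 0, and GLA, AGA and GALNS are the 3 called genes at 1 or more.

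In the list of MiT/TFE factors and lysosomal nutrient sensing, 3 of 25 tested genes rose (1 without sgCtrl replicate 3) and 1 fell (median 0.13). TFEB was at 12.2, 11.9 and 14.2 CPM in sgCtrl and at 13.2, 11.2 and 10.7 CPM in sgKeap1-2 and was not called (-0.13, SE 0.22, adjusted p = 0.789). TFE3 was at 34.2, 28.9 and 32.3 CPM and at 42.8, 45.4 and 48.2 CPM (0.51, SE 0.15, adjusted p = 0.0442), a call lost without any 1 of the 6 libraries (highest adjusted p = 0.145, without sgCtrl replicate 2) and with only the groups compared (adjusted p = 0.0681). GPNMB, a transmembrane glycoprotein of lysosomes and melanosomes, was at 0.34 to 0.795 CPM in sgCtrl and at 3.63 to 6.16 CPM in sgKeap1-2 (2.99, SE 0.53, adjusted p = 0.00201). An intron of GPNMB holds 1 of the 20 genomic sites with 3 mismatches to the sgCtrl target, and its part in this value was not tested. FNIP2, which acts on the nutrient-sensing GTPases at the lysosome, fell by 0.68 on the log2 scale (SE 0.17), a call lost without sgCtrl replicate 2 or 3 or sgKeap1-2 replicate 1 (highest adjusted p = 0.065).

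Of 41 tested autophagy genes, 3 rose (7.32%, near the 5.96% of all genes tested) and 0 fell (median 0.12). Besides SQSTM1 these were GABARAPL1, an ATG8 family member, at 16.5 to 22.8 CPM in sgCtrl and 42.5 to 55.1 CPM in sgKeap1-2 (1.26, SE 0.22), and the receptor TAX1BP1, at 241 to 284 and 428 to 611 CPM (1.01, SE 0.16). MAP1LC3B was not called (0.32, SE 0.19, adjusted p = 0.352).

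Promoter sequences of genes that rose were read from RefSeq windows (GRCh38.p14, 250 bases before to 50 after each gene's start, available for 8942 of the 11064 genes tested), searching both strands. The antioxidant response element core TGACNNNGC was found in 88 of 501 up-regulated genes with a window (17.6%), in 40 of the 266 whose fold change reached 1 on the log2 scale (15%), in 14.6% of the down-regulated genes, in 15.4% of all genes tested and in 13.6% of all 27305 windows. The stricter form TGACTCAGC, which is contained in that core, was found in 8 of the 501 (1.6%), in 0.24% of the down-regulated genes, in 0.459% of genes tested and in 0.564% of all windows. In the detoxification, glutathione, thioredoxin and NADPH lists, the core was found in 7 of 24 up-regulated genes with a window (29.2%) and in 7 of 60 other members (11.7%), and the stricter form in 1 of the 24. Windows of 3 up-regulated genes of the glutathione and thioredoxin lists are shown around a match (in capitals). They are examples of the core and, in SLC3A2, of the stricter form. The TXNRD1 window held 2 matches of the core, of which 1 is shown. SLC3A2, the partner chain of the cystine importer, rose by 0.56 (SE 0.17, adjusted p = 0.0444), a call lost without any 1 of 5 libraries (highest adjusted p = 0.184, without sgCtrl replicate 1) and with limma-voom or at least 10 counts in every library (highest adjusted p = 0.054).
GCLM (chr1:93909436-93909484, minus strand): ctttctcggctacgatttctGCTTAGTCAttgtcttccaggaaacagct
TXNRD1 (chr12:104215660-104215708, plus strand): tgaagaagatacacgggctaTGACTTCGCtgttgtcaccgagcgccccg
SLC3A2 (chr11:62881642-62881690, plus strand): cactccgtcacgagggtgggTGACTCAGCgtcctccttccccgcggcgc
The CLEAR core TCACGTGA was found in 4 of 10 up-regulated lysosomal genes with a window (40%), in 7 of 62 other lysosomal genes (11.3%), in 1.6% of all up-regulated genes, in 2.11% of genes tested and in 1.04% of all windows. The antioxidant response element core was found in 5 of the same 10 genes (50%) and in 17 of the 62 others (27.4%). It lay in the windows of GLA and ATP6V0A1 and of GAA, CTSA and LAMP1, which also held CLEAR cores, and in GAA it overlapped 1 of them. The 4 genes with a CLEAR core were GALNS, GAA, CTSA and LAMP1, and their matches are shown.
GALNS (chr16:88857095-88857142, minus strand): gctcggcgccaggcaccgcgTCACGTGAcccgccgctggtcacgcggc
GAA (chr17:80101529-80101576, plus strand): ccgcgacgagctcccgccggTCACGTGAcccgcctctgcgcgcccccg
CTSA (chr20:45891289-45891336, plus strand): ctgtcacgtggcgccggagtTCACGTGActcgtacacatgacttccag
LAMP1 (chr13:113297190-113297237, plus strand): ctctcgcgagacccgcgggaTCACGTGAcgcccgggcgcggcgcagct
GAA and LAMP1 each held 2 such matches in the window. A match describes the letters and is not evidence of binding, and distal elements lie outside these windows.

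Few genes of protein quality control, translation and respiration were called. Of 44 tested proteasome genes, 1 rose and 1 fell (median 0.17). Both counts were 0 without sgCtrl replicate 1 or 3, 0 was lower without sgKeap1-2 replicate 1, 2 were higher without sgKeap1-2 replicate 2 or 3 or with the DESeq2 Wald test, and 5 were higher with a block for the replicate number. Of 45 chaperones 3 rose (5 without sgKeap1-2 replicate 3) and 0 fell (median 0.06), and of 74 ribosomal protein genes 0 were called (median -0.03). DNAJB4, an HSP40 co-chaperone, went from 4.76–9.48 to 36.3–43.9 CPM (2.54, SE 0.26), and the small heat shock gene HSPB1 from 163–197 to 283–352 CPM (0.80, SE 0.14). Of 74 nuclear genes of the respiratory chain, 1 rose and 0 fell (median 0.05), and 0 rose with limma-voom, with only the groups compared in the fit, or without sgCtrl replicate 2 or 3 or sgKeap1-2 replicate 1 or 3.

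Secreted liver proteins were widely down-regulated: 25 of 55 tested coagulation, complement and plasma protein genes fell and 3 rose (median -0.55), against 14 lower and 1 higher without sgCtrl replicate 1 and 1 higher without sgCtrl replicate 3. ALB was at 13608, 16328 and 11034 CPM in sgCtrl and at 4281, 5186 and 3493 CPM in sgKeap1-2 (-1.66, SE 0.19, adjusted p = 5.08e-05). AFP, the fetal counterpart of albumin that HepG2 cells express, was at 5386, 6902 and 5789 CPM and at 1147, 1386 and 930 CPM (-2.38, SE 0.19, adjusted p = 2.36e-06). The highest sgKeap1-2 library stayed below the lowest sgCtrl library for both genes. The summed level of the 13 hepatocyte markers, which include both, was 36035 to 44175 CPM in sgCtrl and 22235 to 24759 CPM in sgKeap1-2. Most of this difference came from ALB and AFP. Of the 13 markers, 6 were called lower and 2 higher. In bulk RNA, fewer cells of a kind and less RNA per cell cannot be told apart.

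The fibrinogen chains FGA and FGB fell by 0.81 (SE 0.15) and 1.15 (SE 0.15) on the log2 scale, the adhesion protein vitronectin (VTN) by 2.08 (SE 0.27), kininogen (KNG1) by 1.61 (SE 0.25) and the antimicrobial peptide LEAP2 by 2.24 (SE 0.31). The complement protease C1S was higher, at 10.2 to 13.2 CPM in sgCtrl and at 35.6 to 53.3 CPM in sgKeap1-2 (1.91, SE 0.21, adjusted p = 2.95e-05). Its partner C1R was at 4.08 to 4.5 and at 8.54 to 11.4 CPM (1.15, SE 0.29, adjusted p = 0.0181), a call lost without any 1 of the sgCtrl libraries or sgKeap1-2 replicate 3 (highest adjusted p = 0.0597). Transthyretin (TTR), the thyroxine and retinol carrier, went from 333–436 to 529–695 CPM (0.65, SE 0.15, adjusted p = 0.0131), a call lost without sgCtrl replicate 1 or 3 (highest adjusted p = 0.0792).

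Of 21 tested apolipoprotein and lipoprotein assembly genes, 6 fell and 1 rose (median -0.08), and 0 rose without any 1 of the sgCtrl libraries or sgKeap1-2 replicate 2. MTTP, which loads lipid onto nascent APOB particles, was at 125, 158 and 129 CPM in sgCtrl and at 8.93, 15.1 and 9.21 CPM in sgKeap1-2 (-3.61, SE 0.25, adjusted p = 1.11e-06). APOB itself was at 4708, 5011 and 4805 CPM and at 4402, 4815 and 5579 CPM, with overlapping groups (0.03, SE 0.12, adjusted p = 0.928). APOA1, the main protein of HDL, fell by 1.13 on the log2 scale (SE 0.17), APOC3, an inhibitor of triglyceride clearance, by 1.41 (SE 0.25) and APOH, a plasma phospholipid-binding protein, by 0.86 (SE 0.12).

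**Figure D4:**
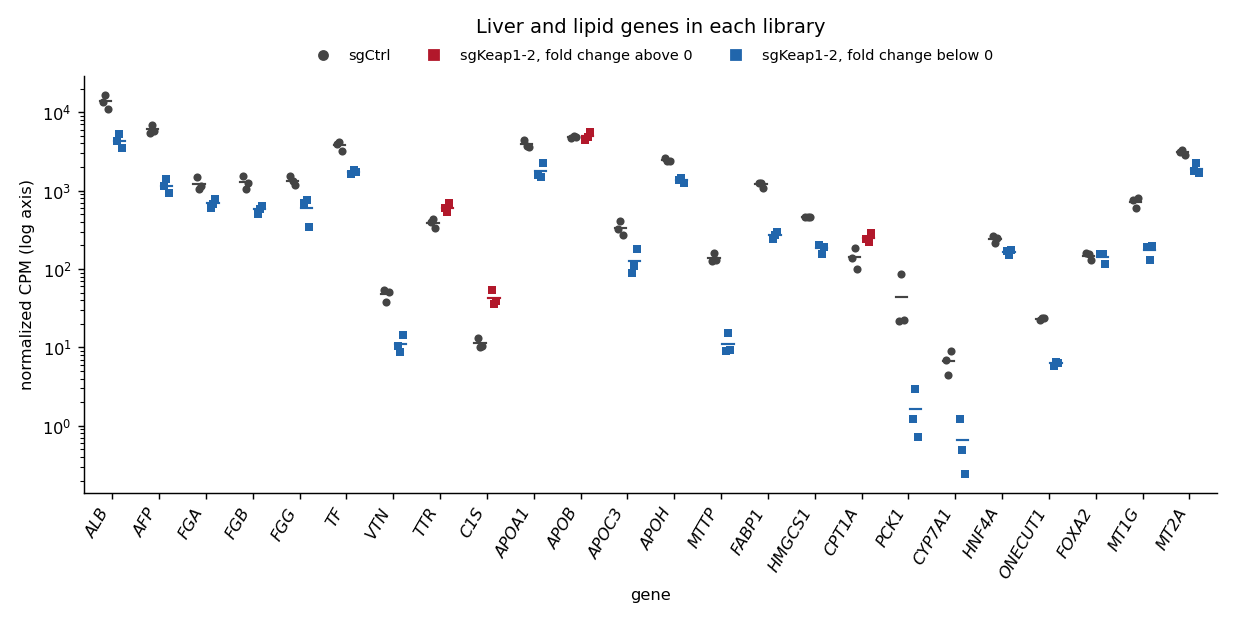
Normalized CPM on a log axis of liver, lipid and metallothionein genes in each of the 3 sgCtrl libraries (grey circles) and the 3 sgKeap1-2 libraries (squares, blue below and red above sgCtrl), with group means as short lines. ALB, AFP, MTTP and FABP1 lie below sgCtrl in every sgKeap1-2 library, APOB and FOXA2 overlap, and C1S lies above.

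Cholesterol genes were down-regulated in 12 of 25 tested cases, and 1 rose (median -0.54). HMGCS1, an early enzyme of the pathway, was at 461, 463 and 465 CPM in sgCtrl and at 200, 157 and 193 CPM in sgKeap1-2 (-1.34, SE 0.13, adjusted p = 1.12e-05). SQLE, the squalene epoxidase, fell by 0.91 on the log2 scale (SE 0.13) and IDI1, the isopentenyl isomerase, fell by 1.08 (SE 0.19). SREBF2, which encodes the sterol-sensing transcription factor of the pathway, was not called (-0.31, SE 0.15, adjusted p = 0.221).

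More fatty acid genes fell than rose. In the oxidation and peroxisome list, 11 of 54 tested members fell and 2 rose (median -0.23), and in the synthesis list 6 of 25 fell and 2 rose (median -0.28). The lower fatty acid oxidation genes, 11 with all libraries, were 5 to 7 without any 1 of the libraries other than sgKeap1-2 replicate 3, where they were 9, and 7 with only the groups compared in the fit. FABP1, the liver fatty acid binding protein, was at 1254, 1254 and 1074 CPM in sgCtrl and at 239, 271 and 294 CPM in sgKeap1-2 (-2.16, SE 0.17, adjusted p = 1.76e-06). HADH and PHYH, of mitochondrial beta-oxidation and peroxisomal alpha-oxidation, fell by 1.23 (SE 0.15) and 1.16 (SE 0.20) on the log2 scale. ETFB, a subunit of the flavoprotein that takes electrons from acyl-CoA dehydrogenases, rose from 869–1085 to 1615–2067 CPM (0.89, SE 0.14). Of the synthesis list, the elongase ELOVL2 fell from 168–218 to 67.6–71.7 CPM (-1.43, SE 0.13), the lipid droplet gene CIDEB fell by 1.30 (SE 0.19) and the carbohydrate-response factor MLXIPL by 0.88 (SE 0.13) on the log2 scale. Its paralogous droplet gene CIDEC rose by 1.44 (SE 0.29).

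In the list of glycolysis, gluconeogenesis and glycogen, 7 of 40 tested members rose (4 without sgCtrl replicate 3) and 3 fell (1 without sgKeap1-2 replicate 1; median 0.14). The muscle-type pyruvate kinase gene PKM went from 726, 750 and 678 CPM to 1140, 1307 and 1428 CPM (0.85, SE 0.12, adjusted p = 0.00022). PFKP, the platelet phosphofructokinase, was at 0.53 to 3.07 CPM in sgCtrl and 14.2 to 20.5 CPM in sgKeap1-2 (3.31, SE 0.39), and hexokinase HK1 at 0.265 to 1.36 and 6.54 to 8.62 CPM (3.12, SE 0.47). GCKR, the glucokinase regulator, rose by 2.39 (SE 0.29). PCK1, which commits oxaloacetate to gluconeogenesis, was at 22, 86.1 and 22.3 CPM in sgCtrl and at 1.23, 2.93 and 0.727 CPM in sgKeap1-2 (-4.67, SE 1.02, adjusted p = 0.0255), a call lost without any 1 of the sgKeap1-2 libraries (highest adjusted p = 0.119, without replicate 3). G6PC1, the glucose-6-phosphatase, was at 12.7, 92.6 and 7.81 CPM and at 0.308, 1.71 and 0 CPM, and was not called (-5.67, SE 1.55, adjusted p = 0.0651). For both genes sgCtrl replicate 2 was far above the other sgCtrl libraries, and no sgKeap1-2 library overlapped them.

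Of 26 tested hepatocyte transcription factors, 0 rose and 4 fell (median -0.12), with 2 lower without sgCtrl replicate 1 or 3. ONECUT1 (HNF6) was at 22.5, 23.8 and 23.4 CPM in sgCtrl and at 5.85, 6.58 and 6.3 CPM in sgKeap1-2 (-1.89, SE 0.24, adjusted p = 0.000103). CREB3L3, a membrane-bound factor of the fasting response, fell by 1.29 on the log2 scale (SE 0.24). HNF4A went from 267, 216 and 249 CPM to 172, 150 and 173 CPM (-0.56, SE 0.13, adjusted p = 0.0126), a call lost without sgCtrl replicate 1 (adjusted p = 0.0706) or 3 or sgKeap1-2 replicate 2, and FOXA2 was not called (-0.04, SE 0.14, adjusted p = 0.901). Of 18 tested bile acid genes, 4 fell and 1 rose (median -0.47), and 2 rose without sgKeap1-2 replicate 3 and 0 without any 1 of the libraries other than that and sgCtrl replicate 1. CYP7A1, the rate-limiting enzyme of bile acid synthesis, went from 6.89, 4.42 and 8.92 CPM to 1.23, 0.488 and 0.242 CPM (-3.40, SE 0.57, adjusted p = 0.00133). Of 42 tested genes of the urea cycle and amino acid catabolism, 6 fell and 3 rose (median -0.33), with 1 higher without sgCtrl replicate 1 or 3 or sgKeap1-2 replicate 1 or with only the groups compared. The cysteine dioxygenase CDO1, the first enzyme of cysteine breakdown, fell from 8.09–10.1 to 1.46–1.85 CPM (-2.44, SE 0.35), and HPD of tyrosine breakdown rose by 1.12 (SE 0.23).

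Metallothioneins, small cysteine-rich proteins that bind zinc and copper, were mostly down-regulated. Of 12 tested genes for metallothioneins and zinc handling, 8 fell and 1 rose (median -1.20; 0 rose without sgCtrl replicate 1 or 3 or sgKeap1-2 replicate 1 or 2 or with only the groups compared), and 5 fell where 10 counts were required in every library. MT1G was at 767, 596 and 792 CPM in sgCtrl and at 188, 130 and 198 CPM in sgKeap1-2 (-2.06, SE 0.18, adjusted p = 3.7e-06). MT1E went from 1659, 1808 and 1603 CPM to 848, 794 and 654 CPM (-1.14, SE 0.13, adjusted p = 4.83e-05). MT1F, MT1A and MT1X fell by 1.83, 1.67 and 1.25 on the log2 scale (SE 0.15 to 0.19), and MT1M by 3.55 (SE 0.40). MT2A fell from 2806–3330 to 1683–2215 CPM (-0.70, SE 0.21, adjusted p = 0.0485), but its call was lost without any 1 of 5 libraries (highest adjusted p = 0.174, without sgKeap1-2 replicate 3) and with DESeq2 size factors or at least 10 counts in every library (highest adjusted p = 0.0582). These genes are near-identical, so reads may be divided wrongly among them. The manganese and zinc exporter SLC30A10 fell from 21.5–38.5 to 2.42–7.56 CPM (-2.68, SE 0.45), while the zinc exporter SLC30A1 (-0.25, SE 0.17, adjusted p = 0.433) and the zinc-sensing factor MTF1 (0.52, SE 0.22, adjusted p = 0.175) were not called.

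Most cell cycle genes had fold changes below 0 (55 of 60 tested, median -0.44), with 8 called lower and 4 higher. The D cyclins, which drive entry into S phase, all rose: CCND1 from 278–306 to 398–557 CPM (0.70, SE 0.15), CCND3 from 7.15–10.6 to 29.3–38.3 CPM (1.84, SE 0.24) and CCND2 from 1.59–3.06 to 8.05–20 CPM (2.80, SE 0.46). The cyclin-dependent kinase inhibitor CDKN1A rose as well, from 66.5, 64 and 69.7 CPM to 126, 118 and 131 CPM (0.90, SE 0.13, adjusted p = 0.000407). E2F1, a transcription factor of S-phase genes, fell by 0.91 on the log2 scale (SE 0.19), and MKI67, a proliferation marker, was not called (-0.25, SE 0.26, adjusted p = 0.633). The number of lower members was 5, 3 and 2 without sgCtrl replicates 1 to 3, 2 without sgKeap1-2 replicate 2, and 5 with limma-voom, with library size alone or with at least 10 counts in every library. It was 11 with the DESeq2 Wald test and 31 with a block for the replicate number, where 4 were called higher. Of 34 genes of the ATF4 amino acid response 4 rose and 2 fell (median 0.08). The ATF4 genes called higher were 2 without sgCtrl replicate 1 or 3 or sgKeap1-2 replicate 1, with limma-voom or with at least 10 counts in every library, and 10 with the block, and 1 was lower without sgCtrl replicate 2 or 3 or sgKeap1-2 replicate 1. In the interferon list 3 of 21 tested genes rose and 0 fell (median -0.07), among them IFITM3, a membrane restriction factor, from 199–267 to 372–475 CPM (0.87, SE 0.18).

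In the matrix, cytoskeletal and epithelial lists, more members were called higher than lower, and most were not called. Of 39 tested matrix, integrin and protease genes, 11 rose (7 without sgCtrl replicate 3) and 4 fell (median 0.19). SPP1 (osteopontin), a secreted integrin ligand, was at 193, 195 and 137 CPM in sgCtrl and at 1636, 1892 and 916 CPM in sgKeap1-2 (3.08, SE 0.30, adjusted p = 9.09e-05). The protease inhibitor TIMP1 went from 26.2–32.9 to 86.3–135 CPM (1.93, SE 0.28) and the membrane-bound metalloprotease MMP14 from 3.4–4.5 to 14.8–16.2 CPM (1.98, SE 0.28). COL2A1, a fibrillar collagen, fell from 17.4–23.8 to 0.732–2.91 CPM (-3.43, SE 0.38), and TIMP3 fell by 1.00 on the log2 scale (SE 0.14).

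Of 51 tested cytoskeletal genes, 14 rose and 4 fell (median 0.27). MAP2, a microtubule-associated protein of neurons, had 0, 1 and 0 counts in the sgCtrl libraries and 240, 228 and 195 in the sgKeap1-2 libraries, a ratio of 595 (95% counting interval 106 to 2.35e+04). MAP1B, of the same class, went from 52.5, 51.7 and 56.9 CPM to 298, 283 and 212 CPM (2.30, SE 0.18, adjusted p = 1.62e-06). The tubulins TUBA4A and TUBA1A rose by 2.32 (SE 0.21) and 2.12 (SE 0.29), with reads that similar tubulin genes may share, and the ductal keratin KRT19 by 1.48 (SE 0.20). The muscle genes ACTA1 and TAGLN fell by 3.41 (SE 0.38) and 1.65 (SE 0.30) on the log2 scale.

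Of 34 tested genes for epithelial adhesion and dedifferentiation, 12 rose and 3 fell (median 0.45). S100A11, a calcium-binding protein, was at 10.9, 17 and 11.4 CPM in sgCtrl and at 106, 117 and 93 CPM in sgKeap1-2 (3.02, SE 0.19, adjusted p = 3.05e-07). SFN (14-3-3 sigma) went from 46.4, 44.6 and 51.6 CPM to 271, 222 and 327 CPM (2.52, SE 0.18, adjusted p = 9.02e-07), and the progenitor factor SOX4 from 53, 66.4 and 66.6 CPM to 288, 248 and 308 CPM (2.18, SE 0.18, adjusted p = 2.32e-06). CDH1, epithelial cadherin, rose by 1.88 (SE 0.29). The tight junction genes CLDN14 and CLDN1 fell by 2.95 (SE 0.45) and 1.01 (SE 0.16) on the log2 scale, as did the progenitor marker PROM1 by 1.67 (SE 0.28).

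Growth factor and oncofetal genes were divided, with 7 of 37 tested members up and 10 down (median -0.03), and 4 up and 4 down without sgCtrl replicate 1. The higher members were also 4 with at least 10 counts in every library. The lower members were 6 without sgCtrl replicate 3 and 4 without sgKeap1-2 replicate 1. IGF2, the fetal growth factor, was at 1704, 1952 and 1305 CPM in sgCtrl and at 413, 443 and 752 CPM in sgKeap1-2 (-1.62, SE 0.22, adjusted p = 0.000426). The imprinted gene PEG10 went from 3281, 2802 and 2999 CPM to 1099, 1160 and 1262 CPM (-1.37, SE 0.12, adjusted p = 3.29e-06), and the receptor ERBB2 fell by 1.12 on the log2 scale (SE 0.15). In the other direction, the ERBB ligand NRG1 had 1 count over the 3 sgCtrl libraries and 50 over the sgKeap1-2 libraries (ratio 44.9, 95% counting interval 7.69 to 1.81e+03). PDGFA went from 1.59–2.23 to 16.6–18.2 CPM (3.19, SE 0.28) and the IGF-binding protein IGFBP6 from 1.59–4.46 to 30.2–40.9 CPM (3.69, SE 0.29).

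The largest changes outside these lists included genes that were silent or nearly silent in the control. Of the called genes, 12 had 0 counts in all 3 sgCtrl libraries, and 0 had none in all 3 sgKeap1-2 libraries. Of the 12, 2 reached 10 CPM in the sgKeap1-2 mean. A gene with 0 counts in sgCtrl could pass the filter only through the KEAP1 guide libraries, so its direction was fixed beforehand. The share of such genes among all genes tested is not given here. TUSC3, an oligosaccharyltransferase subunit, had 86, 99 and 66 counts in the sgKeap1-2 libraries, at least 75.1-fold higher against a floor of 3 counts over the control group. TINAG, a basement membrane glycoprotein, had 61, 112 and 57 counts, at least 68.8-fold higher. The beta-defensin DEFB1 had 1 count over the sgCtrl libraries and 161, 189 and 174 counts in sgKeap1-2, a ratio of 470 (95% counting interval 84 to 1.86e+04). NOTCH3, a Notch receptor, had 2 counts against 73, 119 and 78, a ratio of 121 (33.2 to 1.01e+03), and the laminin chain LAMC3 had 2 against 65, 55 and 81, a ratio of 90.2 (24.6 to 750). PLA2G2A, a secreted phospholipase, was at 5.3, 2.38 and 5.58 CPM and at 159, 186 and 128 CPM (5.11, SE 0.36, adjusted p = 4.59e-06). Among the largest decreases, the organic anion transporter SLCO4C1 fell from 26.2–37.6 to 2.68–3.88 CPM (-3.42, SE 0.29), the sodium channel SCN1A from 16.5–23.6 to 1.7–4.15 CPM (-2.95, SE 0.34), the BMP family member GDF7 from 38.1–45.8 to 6.1–6.54 CPM (-2.70, SE 0.20) and TNFSF10 (TRAIL), a death receptor ligand, from 39.6–75.5 to 8.96–11.2 CPM (-2.44, SE 0.33).

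The exon 2 guide was also compared directly with the other KEAP1 guide. Between sgKeap1-2 and sgKeap1-1, 2 of 11064 genes (0.0181%) were called, MTTP and FABP1. An unadjusted edgeR p-value under 0.05 was found for 562 of the 11064 genes. This is close to the number that a threshold of 0.05 passes where no gene differs. Between sgKeap1-2 and sgCtrl the same count was 2582. MTTP averaged 137 ± 17.9 CPM in sgCtrl, 40 CPM in sgKeap1-1 and 11.1 ± 3.5 CPM in sgKeap1-2 (SD, n = 3), and the difference between guides was -1.84 (SE 0.25, edgeR adjusted p = 0.0377). FABP1 averaged 1194 ± 104 CPM, 590 CPM and 268 ± 27.6 CPM in the same order, with a difference of -1.14. Both calls were lost under some of the alternatives given in the closing section. Against the shared sgCtrl libraries, the log2 fold changes with sgKeap1-2 and sgKeap1-1 were 1.74 and 1.38 for NQO1, 2.18 and 1.77 for GCLM, 1.75 and 1.49 for GLA, -1.66 and -1.10 for ALB and 0.02 and -0.40 for KEAP1.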

How the data were processed

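The authors deposited a table of whole-number read counts per gene for the 9 libraries, without normalization. Per the labels and the study's methods, RNA was extracted with the NucleoSpin RNA kit and QuantSeq 3′ libraries were sequenced as single-end reads. The submitters' processing notes name FastQC 0.72, cutadapt 1.16, STAR 2.7.5b, featureCounts 1.6.3 and limma 3.40.6. The notes list the build hg38, whereas the study's methods name GRCh37; the gene annotation and the strand setting are not given in the sources used here, so reads of a gene and an antisense partner may not be told apart.

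The table held 12798 features, all of them above 0.5 CPM in 3 or more libraries, which shows an earlier filter on low counts. The 1052 features without a gene number (1.34% of counts) were left out of library sizes and tests. The table held 0 further sample columns. Gene symbols came from the gene name table for 11740 of 11746 numbered features. Genes were kept with filterByExpr (11064), scaled by TMM and tested with edgeR's quasi-likelihood test (edgeR 4.0.16, R 4.3.3, robust fit, all 9 libraries, group as the only factor), with Benjamini-Hochberg adjustment over all genes and a threshold of 0.05. The SE was taken as the size of the log2 fold change over the root of its F statistic. Intervals for genes with 3 counts or fewer in a group are exact binomial intervals over the group's counts and cover counting error only.

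Other settings tried were a block for the replicate number, DESeq2 size factors, library size alone, limma-voom (limma 3.58.1), the DESeq2 Wald test (1.42.0), no filter, a minimum of 10 counts in each library, a fit of the compared groups alone, a log2 fold change of at least 1, and leaving out each library. Keeping the unnumbered features was added after seeing the data. The code was tested on simulated data.

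The comparison, gene lists and rule for named genes were chosen with earlier results of these data known. The rule took KEAP1, up to 6 called members of each list in each direction with the largest fold change together with members of central role, and the 15 largest increases and decreases without overlap and with at least 10 CPM in the higher group. LYZ, G6PC1, EGF and the genes of the motif search were named after their values were seen. Guide sequences were taken from the study's supplement by guide number, matched to GRCh37 with up to 3 mismatches before NGG and annotated with the GENCODE lift of that build. Promoter windows are from RefSeq (GRCh38.p14). Some genes and a list that the rule would name are not reported here.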

Additional observations from a re-analysis of the deposited data

Results flagged for a closer look

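MTTP and FABP1 were flagged because the direct edgeR test between the guides called a difference (sgKeap1-2 against sgKeap1-1, adjusted p = 0.0377 for both). The log2 fold change between the guides was -1.84 for MTTP and -1.14 for FABP1, with the lower level under sgKeap1-2 in each case. With limma-voom the adjusted p was 0.102 for MTTP and 0.0805 for FABP1, and with only the 6 guide libraries in the fit it was 0.189 for both. Leaving out 1 guide library gave adjusted p-values of 0.00665 to 0.251 for MTTP and 0.0323 to 0.251 for FABP1. Groups of 3 libraries were not tested for outlying samples.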

How the results depend on the processing

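The 1196 calls of sgKeap1-2 against sgCtrl (659 higher, 537 lower) became 1956 (1008 higher, 948 lower) with the replicate block and 764 to 1255 (432 to 689 higher, 314 to 566 lower) when each library was left out, and 595 reached a log2 fold change of 1 in size. The replicate numbers were not taken to pair the libraries, because same-numbered columns share a prefix whose meaning the labels do not give. Correlations of same-numbered deviations between sgCtrl and sgKeap1-2 were -0.0129, 0.341 and 0.203 for numbers 1, 2 and 3. In both groups numbers 2 and 3 correlated best with their own number, and number 1 did not. The main fit has group as its only factor, so any deviation that same-numbered libraries share stays in its spread. BACH1 and MAFG, not called otherwise, were called higher with the replicate block. Beside the cell cycle, ATF4, lysosomal and proteasome lists, the counts that rose by over 1.5 times and by 3 or more genes under the block were the lower members, from 6 to 10 for the urea cycle and amino acids, 4 to 8 for matrix genes, 4 to 7 for cytoskeletal genes and for bile acid genes, 3 to 6 for iron and for phase I and II enzymes and 0 to 3 for thioredoxins, and the higher members, from 7 to 12 for growth factor and oncofetal genes and 1 to 4 for the respiratory chain. List counts of 0 to 2 members otherwise moved by 1 with a library left out or with at least 10 counts in every library: the higher fatty acid oxidation and fatty acid synthesis genes from 2 to 1, the higher hepatocyte factors (0) and lower detoxification and thioredoxin genes (0) to 1. Between the guides, 2 calls became 26 with the replicate block, 19 with the DESeq2 Wald test, 0 with limma-voom, 0 with at least 10 counts in every library, 0 with only the groups compared and 0 to 2 with a library left out. The log2 fold change of KEAP1, 0.02, ranged from -0.12 to 0.11 with a library left out and was -0.12 without sgCtrl replicate 1 and -0.01 without sgKeap1-2 replicate 2. Among uncalled genes, HMOX1 (-0.01) ranged from -0.28 to 0.16 with a library left out and was at 0.07 and 0.02 without sgCtrl replicates 2 and 3 and at 0.06 and 0.16 without sgKeap1-2 replicates 1 and 2, APOB (0.03) ranged from -0.07 (without sgKeap1-2 replicate 3) to 0.10, FOXA2 (-0.04) from -0.13 to 0.08 (without sgKeap1-2 replicate 3; 0.01 without sgCtrl replicate 1), and LYZ (-0.21) from -0.56 to 0.15 (without sgCtrl replicate 2). The causes of these shifts were not tested. Of 196 called genes followed, 196 kept their direction under every alternative that could be run and 155 also kept their call. These genes were picked in the same data, largely under the rule for named genes, which favours large fold changes. They do not stand for all 1196 calls. With at least 10 counts in every library, 153 of the 196 kept their call, 3 lost it and the others were not tested. With 3 libraries a group of 3051755 to 4266750 counts, small changes of genes near 1 CPM may have been missed, which was not tested.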

Other observations

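Of the 8 up-regulated genes whose promoter window held TGACTCAGC, 1 (SLC3A2) was in the redox lists. EGF, the epidermal growth factor, had 0 counts in all 3 sgCtrl libraries and 16, 22 and 11 in the sgKeap1-2 libraries, at least 14.7-fold higher against a floor of 3 counts over the control group. The long non-coding RNA gene LUCAT1 rose by 3.72 on the log2 scale, PRECSIT by 3.09 and the homeobox gene DLX1 by 2.28, each with the match within 100 bases of the gene's start.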
